A study of Mus musculus with 4 samples.

Results

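Eicosanoids are oxygenated lipids made from arachidonic acid, a fatty acid that phospholipases cut from membranes. In the leukotriene branch, 5-lipoxygenase works with its activating protein to make leukotriene A, which is then turned into leukotriene B, a neutrophil attractant, or into the cysteinyl leukotrienes, which constrict airways and open vessels. In the prostanoid branch, cyclooxygenases make prostaglandin H, and separate synthases turn it into prostaglandin D, prostaglandin E or thromboxane. Mature myeloid cells, among them neutrophils, macrophages and mast cells, are main sources of these lipids. The 10 mouse genes described here encode enzymes of both branches, with 1 further lipoxygenase and the activating protein. They were found by exact gene symbol among 24497 mouse entries, and all 10 were listed: Alox5, Alox5ap, Alox15, Ltc4s and Lta4h for leukotrienes and lipoxygenation, and Hpgds, Ptgs1, Ptgs2, Ptges and Tbxas1 for prostanoids.

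RNA-seq was measured in 4 libraries of NRAS/AE9a leukemic cells, a mouse model of acute myeloid leukemia, with 2 libraries labelled Tet2 KO and 2 labelled WT. The cells of the Tet2 KO group came from bone marrow hematopoietic stem cells of Tet2-/- mice, which lack exons 8 to 10 of Tet2, and those of the WT group from wildtype mice. Both groups carried NRAS and AE9a and were kept in culture in RPMI with SCF, IL-3, IL-6, G418 and puromycin, so neither group is an untransformed or unselected cell. Tet2 encodes a dioxygenase that oxidises 5-methylcytosine. The labels do not say how many animals or cultures gave the replicates, so the spread behind each p may be technical.

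Values are TPM, length-corrected transcript abundances that sum to the same total in each library, so levels can be compared between genes. Read depth is unknown, and no counting error or detection limit can be given. Between 11630 and 11731 genes reached 1 TPM per library. Tet2 itself had 53.53 and 52.79 TPM in the Tet2 KO libraries, against 35.05 and 39.95 TPM in the WT libraries. A value for the whole gene does not check a deletion of exons 8 to 10. Myeloid markers were present: Ptprc had 209.08 and 211.14 TPM in Tet2 KO, against 181.98 and 191.17 TPM in WT, and Mpo, the myeloperoxidase of granulocyte precursors, had 989.75 and 1037.06 TPM against 730.73 and 757.54 TPM. Of 8 tested markers of myeloid leukemic and progenitor cells, of 9 listed, 5 were higher in Tet2 KO and 2 lower (3 and 2 with spike-in scaling). Spi1, 1 of the lower, had 200.12 and 195.55 TPM in Tet2 KO, against 235.18 and 239.81 TPM in WT. Itgam, the other, had 344.70 and 341.25 TPM against 435.69 and 462.67 TPM. Flt3 was under 1 TPM in all 4 libraries, as were all 9 lymphocyte markers examined. All 12 neutrophil markers were lower in Tet2 KO, where they summed to 23788 and 24088 TPM, against 47137 and 46504 TPM in WT, and with quantile scaling 11 of the 12 were. The marker lists were chosen with earlier results of these data known, so such counts are not independent of them. In bulk RNA, fewer cells of a type and less RNA per cell cannot be told apart.

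The 10 enzymes ran from among the most abundant transcripts to under 1 TPM. In both groups Alox5ap and Lta4h stood at the top and Ptges at the bottom. Alox5ap, the membrane protein that hands arachidonic acid to 5-lipoxygenase, averaged 737 ± 3.25 TPM in Tet2 KO and 724 ± 12.4 TPM in WT (SD, n = 2 each). Lta4h, the hydrolase that makes leukotriene B, averaged 710 ± 5.05 TPM in Tet2 KO and 714 ± 6.02 TPM in WT (SD, n = 2 each). These 2 genes ranked 181 and 185 among 11837 expressed genes in Tet2 KO, and 182 and 186 in WT. The order then ran Alox5, Ptgs1, Tbxas1, Ltc4s, Hpgds, Ptgs2, Alox15 and Ptges in Tet2 KO. In WT, Ptgs1 stood above Alox5 and Alox15 above Ptgs2. Neighbours in the order overlapped in their library values in 2 places, Alox15 with Ptges in Tet2 KO and Alox5ap with Lta4h in WT. All 10 genes together held 0.186% and 0.188% of the TPM in Tet2 KO, against 0.190% and 0.188% in WT.

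**Figure D1:**
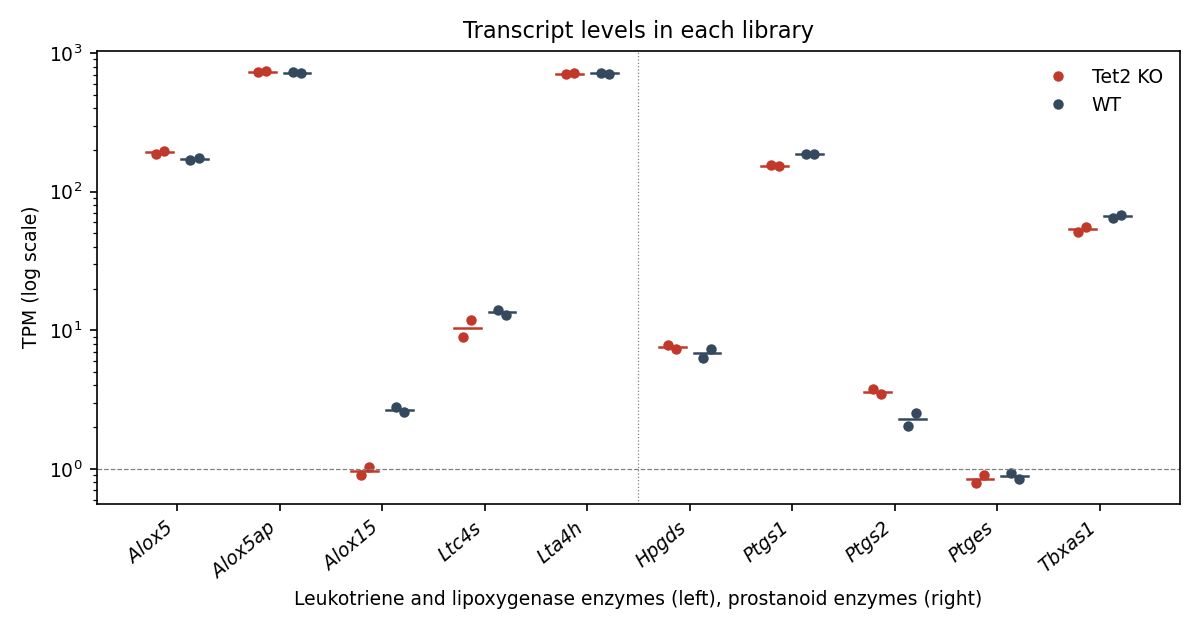
Level of each of the 10 enzymes in every library, in TPM on a log axis, with Tet2 KO (red) left of WT (dark grey); points are libraries, short bars are group means and the dashed line marks 1 TPM. Alox15 sits at 0.90 and 1.04 TPM in Tet2 KO, against 2.79 and 2.57 TPM in WT, while Alox5ap and Lta4h lie between 706.12 and 739.02 TPM in every library.

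Of the 10 enzymes, 5 passed the test between groups, with Alox5 and Ptgs2 higher in Tet2 KO and Alox15, Ptgs1 and Tbxas1 lower. A gene was tested if at least 2 libraries reached 1 TPM, which 9 of the 10 did, and it was called at an adjusted p under 0.05. Over all 11837 tested genes 30.5% were called, 18.9% higher and 11.6% lower. Library values did not overlap between groups for 7 of the 9 tested enzymes, against 68.6% of all tested genes. The median log2 change, Tet2 KO minus WT, was -0.01 over the 9 enzymes and 0.04 over all tested genes. Scaling to the spike-ins moved the latter to -0.07, trimmed-mean scaling to -0.0020. With those 2 scalings the share of calls that were higher was 29.9% and 48.2%, against 62.0% as deposited.

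**Figure D2:**
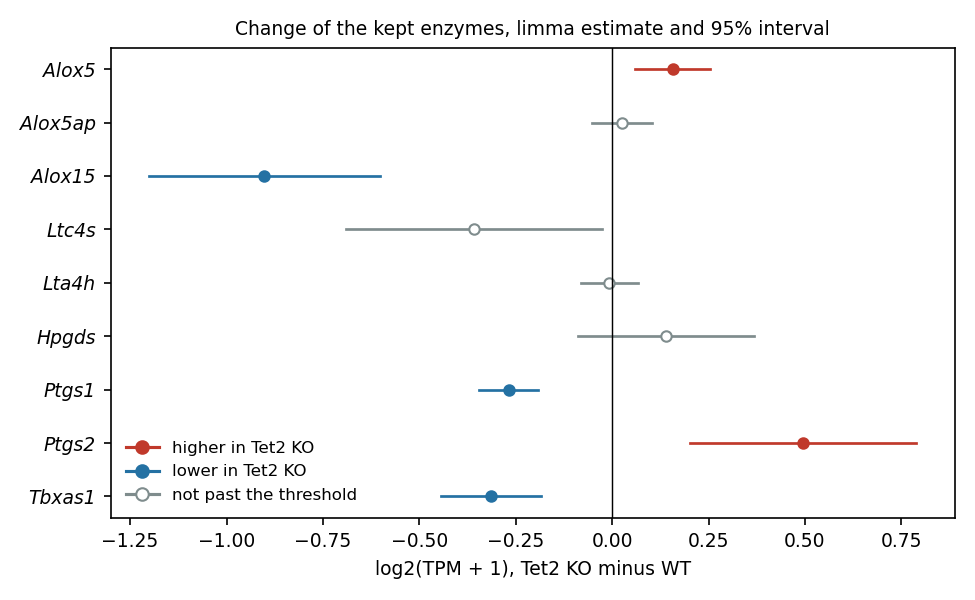
Change of the 9 tested enzymes on the log2(TPM + 1) scale, Tet2 KO minus WT (x axis), as the limma estimate with its 95% interval; filled red points are higher, filled blue points lower, and open points did not pass an adjusted p of 0.05. Alox15 stands furthest from 0, at -0.90, and the interval of Lta4h is centred near 0.

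Alox5 encodes 5-lipoxygenase, which starts leukotriene synthesis. It had 187.95 and 198.02 TPM in Tet2 KO, against 170.77 and 175.08 TPM in WT. Both Tet2 KO libraries lay above both WT libraries, but by little more than the gap between replicates. The log2 change was 0.16 (SE 0.039, limma adjusted p = 0.033). This call rested on every library: leaving out Tet2 KO replicate 1 or 2 gave adjusted p = 0.098 and 0.20, and leaving out WT replicate 1 or 2 gave 0.11 and 0.059. It also fell away with spike-in scaling, at 0.04 (adjusted p = 0.75), and with trimmed-mean scaling, at 0.11 (adjusted p = 0.066).

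The partners of 5-lipoxygenase did not pass. Alox5ap had 734.43 and 739.02 TPM in Tet2 KO, against 732.50 and 714.92 TPM in WT, a log2 change of 0.03 with a 95% interval of -0.05 to 0.10 (limma adjusted p = 0.56). Lta4h had 706.12 and 713.26 TPM in Tet2 KO, against 717.92 and 709.41 TPM in WT, a log2 change of -0.01 with an interval of -0.08 to 0.07 (adjusted p = 0.86). The sign of Alox5ap turned with trimmed-mean and spike-in scaling, and that of Lta4h with quantile scaling and with rescaling without the spike-ins and 45S rRNA. Alox5ap was 3.91 and 3.73 times as abundant as Alox5 in Tet2 KO, and 4.29 and 4.08 times in WT.

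Ltc4s, the synthase that joins leukotriene A to glutathione to start the cysteinyl leukotrienes, did not pass. It had 8.90 and 11.95 TPM in Tet2 KO, against 14.05 and 12.98 TPM in WT. Both Tet2 KO values lay below both WT values, and the Tet2 KO replicates differed from each other more than the closer libraries of the 2 groups did. The log2 change was -0.36 with a 95% interval of -0.69 to -0.03 (limma adjusted p = 0.097). The value turned on single libraries: it was -0.16 (adjusted p = 0.28) without Tet2 KO replicate 1, -0.55 (0.042) without Tet2 KO replicate 2, -0.30 (0.30) without WT replicate 1 and -0.41 (0.17) without WT replicate 2. The gap between the branches that follow leukotriene A was wide in all libraries, with Lta4h 79.3 and 59.7 times as abundant as Ltc4s in Tet2 KO, and 51.1 and 54.7 times in WT.

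Alox15 had the largest change of the tested members. It encodes the 12/15-lipoxygenase of mouse eosinophils and resident or alternatively activated macrophages, which oxygenates arachidonic acid at another carbon than 5-lipoxygenase. It had 0.90 and 1.04 TPM in Tet2 KO, against 2.79 and 2.57 TPM in WT. Both WT libraries lay well above both Tet2 KO libraries, and the means differed 2.76-fold, lower in Tet2 KO. The log2(TPM + 1) change was -0.90 (SE 0.12, limma adjusted p = 0.0051), which understates the change at so low a level; it was -1.38 with a pseudocount of 0.1 and -0.36 with a pseudocount of 5. The gene passed the filter on low values through its WT libraries and 1 Tet2 KO library, and at a filter of 5 TPM it was not tested. The call was kept without each library in turn (adjusted p from 0.023 to 0.045).

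Markers of alternatively activated macrophages were lower beside it, while eosinophil markers were divided. All 11 tested macrophage markers of this kind, of 12 listed, were lower in Tet2 KO (Ccl24 passed the filter only through WT and had to differ), and the list summed to 237 and 225 TPM in Tet2 KO, against 1893 and 1913 TPM in WT. Since the list was chosen with earlier results of these data known, its count is not independent of them. Arg1, an arginase of such macrophages, had 14.26 and 13.66 TPM against 402.45 and 416.22 TPM. Of 9 eosinophil markers 3 were tested, with Prg2 and Ear2 lower and Siglecf higher, and Ear2 was tested only because it reached 1 TPM in WT, so it had to differ. Prg2 had 0.93 and 1.46 TPM in Tet2 KO, against 13.67 and 14.67 TPM in WT. Siglecf had 47.60 and 45.86 TPM in Tet2 KO, against 31.77 and 36.02 TPM in WT. The eosinophil list summed to 49.2 and 47.9 TPM in Tet2 KO, against 47.7 and 53.1 TPM in WT, most of it Siglecf. The defining eosinophil peroxidase gene, Epx, was at 0.00 and 0.03 TPM in Tet2 KO and at 0.33 and 0.29 TPM in WT, and Il5ra was under 1 TPM in all 4 libraries. The part of either cell state in the Alox15 difference was not tested.

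Ptgs1 and Tbxas1, which act in sequence to make thromboxane, were both lower in Tet2 KO. Ptgs1 encodes cyclooxygenase-1, the constitutive enzyme that makes prostaglandin H. It had 155.20 and 153.42 TPM in Tet2 KO, against 185.68 and 186.31 TPM in WT. The gap between the groups was many times that within either. The log2 change was -0.27 (SE 0.031, limma adjusted p = 0.0033), or -0.38 with spike-in scaling. Without Tet2 KO replicate 1 or 2 the value was -0.28 and -0.26, and the call was lost narrowly (adjusted p = 0.051 and 0.055).

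Tbxas1 encodes thromboxane synthase, which takes prostaglandin H on to thromboxane A in platelets and macrophages. It had 51.38 and 55.49 TPM in Tet2 KO, against 65.16 and 68.15 TPM in WT. The groups did not overlap, and the gap between them was wider than that within either. The log2 change was -0.31 (SE 0.052, limma adjusted p = 0.0098), or -0.43 with spike-in scaling. Without Tet2 KO replicate 1 it was -0.26 and did not pass (adjusted p = 0.079). The level of Tbxas1 relative to Ptgs1 was 0.331 and 0.362 in Tet2 KO, and 0.351 and 0.366 in WT, so the ratios overlapped between groups.

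Markers of other cell types known for these enzymes went in different directions. Of 7 tested platelet and megakaryocyte markers, of 11 listed, 2 were higher and 2 lower (Gp5, higher, passed the filter only through Tet2 KO and had to differ), and the list summed to 163 and 153 TPM in Tet2 KO, against 165 and 166 TPM in WT. Itga2b, an integrin of the megakaryocyte lineage, was higher, and Ppbp, a platelet chemokine, was lower, while the platelet collagen receptor gene Gp6 was listed at 0 in all 4 libraries. Of 13 tested monocyte and macrophage markers, of 14 listed, 4 were higher and 2 lower (2 and 2 with spike-in scaling), with sums of 1024 and 1015 TPM in Tet2 KO, against 899 and 932 TPM in WT. The separate list of alternatively activated macrophages, given above, had all 11 tested markers lower, with Ccl24 bound to differ. The part of any of these cell types in the Ptgs1 and Tbxas1 differences was not tested.

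Ptgs2 encodes cyclooxygenase-2, the inducible form, and it was higher in Tet2 KO. It had 3.76 and 3.45 TPM in Tet2 KO, against 2.03 and 2.52 TPM in WT. The groups did not overlap, and the gap between them was wider than that within either. The means differed 1.58-fold, and the log2 change was 0.49 (SE 0.12, limma adjusted p = 0.029). The call was lost without Tet2 KO replicate 1 or 2 (adjusted p = 0.15 and 0.11), without WT replicate 1 (0.098) and with no filter on low values (0.068), and at a filter of 5 TPM the gene was not tested. It was a minor form throughout, with Ptgs1 41.3 and 44.5 times as abundant in Tet2 KO, and 91.5 and 73.9 times in WT.

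The remaining prostanoid synthases were low. Hpgds, the hematopoietic prostaglandin D synthase of mast cells and macrophages, had 7.85 and 7.31 TPM in Tet2 KO, against 6.29 and 7.32 TPM in WT. The groups overlapped, and the log2 change of 0.14 (95% interval -0.09 to 0.37, limma adjusted p = 0.30) did not pass. Ptges, the inducible microsomal prostaglandin E synthase, had 0.79 and 0.91 TPM in Tet2 KO, against 0.94 and 0.85 TPM in WT, and stayed under the filter. With no filter its log2 change was -0.04 (95% interval -0.24 to 0.17, adjusted p = 0.8). Mast cell and basophil markers, the cells best known for Hpgds and Ltc4s, gave 1 higher (0 with spike-in scaling) and 6 lower of 10 tested and 16 listed. The higher one was Cpa3, and the lower ones were Hdc, Ms4a2, Tpsb2, Cma1, Prss34 and Tpsab1. Of the lower ones, Tpsab1 passed the filter only through WT and had to differ. The median log2 change over the 10 tested markers was -1.01. The list summed to 2191 and 2129 TPM in Tet2 KO, against 2046 and 2127 TPM in WT, most of it Cpa3, and Fcer1a was under 1 TPM in all 4 libraries. Their part in the Ltc4s and Hpgds values was not tested.

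The 250 bases before the RefSeq start site are shown for the 4 called enzymes that have such a window, so that the CpG sites, where 5-methylcytosine mostly lies, can be seen in genes that differed in opposite directions. RefSeq windows on build GRCm38.p6 matched 8 of the 10 members. Capitals mark every CpG, and each line runs 5′ to 3′ on the gene's strand.
Ptgs1: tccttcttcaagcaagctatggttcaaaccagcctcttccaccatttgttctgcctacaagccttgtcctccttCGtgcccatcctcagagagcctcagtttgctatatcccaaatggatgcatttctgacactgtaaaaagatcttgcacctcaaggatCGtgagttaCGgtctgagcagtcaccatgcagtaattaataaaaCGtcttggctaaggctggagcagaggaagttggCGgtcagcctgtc
Tbxas1: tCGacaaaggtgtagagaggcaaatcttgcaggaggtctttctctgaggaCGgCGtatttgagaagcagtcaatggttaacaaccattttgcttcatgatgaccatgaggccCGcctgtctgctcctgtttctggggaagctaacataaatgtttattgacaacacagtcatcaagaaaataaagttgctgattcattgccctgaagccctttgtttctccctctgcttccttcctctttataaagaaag
Ptgs2: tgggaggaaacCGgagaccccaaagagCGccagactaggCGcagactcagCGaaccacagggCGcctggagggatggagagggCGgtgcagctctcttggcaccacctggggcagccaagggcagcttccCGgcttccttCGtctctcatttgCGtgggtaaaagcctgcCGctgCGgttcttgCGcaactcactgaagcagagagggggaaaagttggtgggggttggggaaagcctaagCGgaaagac
Alox5: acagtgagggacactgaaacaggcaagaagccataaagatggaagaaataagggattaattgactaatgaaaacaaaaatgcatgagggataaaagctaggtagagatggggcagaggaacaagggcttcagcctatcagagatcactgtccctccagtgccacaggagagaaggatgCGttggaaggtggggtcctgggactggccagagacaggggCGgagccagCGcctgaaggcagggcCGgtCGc

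The windows lie at chr2:36230176-36230425 (plus strand) for Ptgs1, chr6:38918736-38918985 (plus strand) for Tbxas1, chr1:150099781-150100030 (plus strand) for Ptgs2 and chr6:116461179-116461428 (minus strand) for Alox5. Ptgs2 held the most CpG sites, 13, against 5 in Ptgs1, 4 in Tbxas1 and 5 in Alox5; over 32851 such windows the median was 6 and the quartiles 2 and 16. The GC box GGGCGG, searched on both strands, was found in 3 of the 8 member windows and in 32.7% of all windows. Alox5 and Ptgs2 held it once each, Ptges, which stayed under the filter, held 2, and Ptgs1 and Tbxas1 held none. The letters GAGGAA, part of the binding sequence of PU.1, were found in 7 of the 8 member windows and in 23.3% of all windows. In Ptgs1 they began 24 bases before the start on the plus strand, and in Tbxas1 their complement began 19 bases before it. TTGCNNAA, letters of a C/EBP site in which N is any base, was found in 2 of the 8, Hpgds and Ptgs2, and is in 9.56% of all windows. In Ptgs2 it lay at 1 place that matches on both strands. TATAAA was found in Tbxas1 alone of the 8, as overlapping matches on both strands, and is in 12.4% of all windows. The Tbxas1 window belongs to a RefSeq start inside the longer GENCODE gene. Such matches describe letters and show neither binding nor methylation, which were not measured here.

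In GENCODE release M21 on GRCm38, the build the submitters name as mm10, Alox5 lies on chromosome 6 from 116410077 to 116461178, Hpgds on chromosome 6 from 65117293 to 65144908, and Tbxas1 on chromosome 6 from 38875404 to 39084585. Alox15 and Ltc4s are on chromosome 11, from 70344152 to 70352031 and from 50236461 to 50238616. Ptgs1 (36230426 to 36252272) and Ptges (30889471 to 30929863) are on chromosome 2. Ptgs2 is on chromosome 1 from 150100031 to 150108227, Alox5ap on chromosome 5 from 149264767 to 149288153, and Lta4h on chromosome 10 from 93453411 to 93484875. All are annotated as protein coding. Transcripts of the opposite strand overlap exons of Alox5ap (189 bases), Ltc4s (268), Ptgs1 (148) and Tbxas1 (144). The library kit keeps strand, but whether the counting used it is not given in the sources used here, so reads from such partners cannot be told apart.

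Outside the 10 enzymes, 72 other genes of eicosanoid supply, synthesis, breakdown and sensing were in the table. Of these, 39 were tested, and 9 were higher and 13 lower in Tet2 KO, beside 18.9% higher and 11.6% lower over all tested genes. The split depended on scaling: 2 were higher and 14 lower with spike-in scaling, 7 and 15 with trimmed-mean scaling, and 7 and 14 with quantile scaling. Of the 22 called genes, 5 kept the call without each library in turn, namely Mgll, Abcc1, Ggt5, Dpep2 and Ptger1, and 17 lost it without at least 1 library. Of those 5, Abcc1 lost the call with spike-in scaling, and the other 4 kept it in every fit in which they were tested. Ggt5 was not tested at a filter of 5 TPM.

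**Figure D3:**
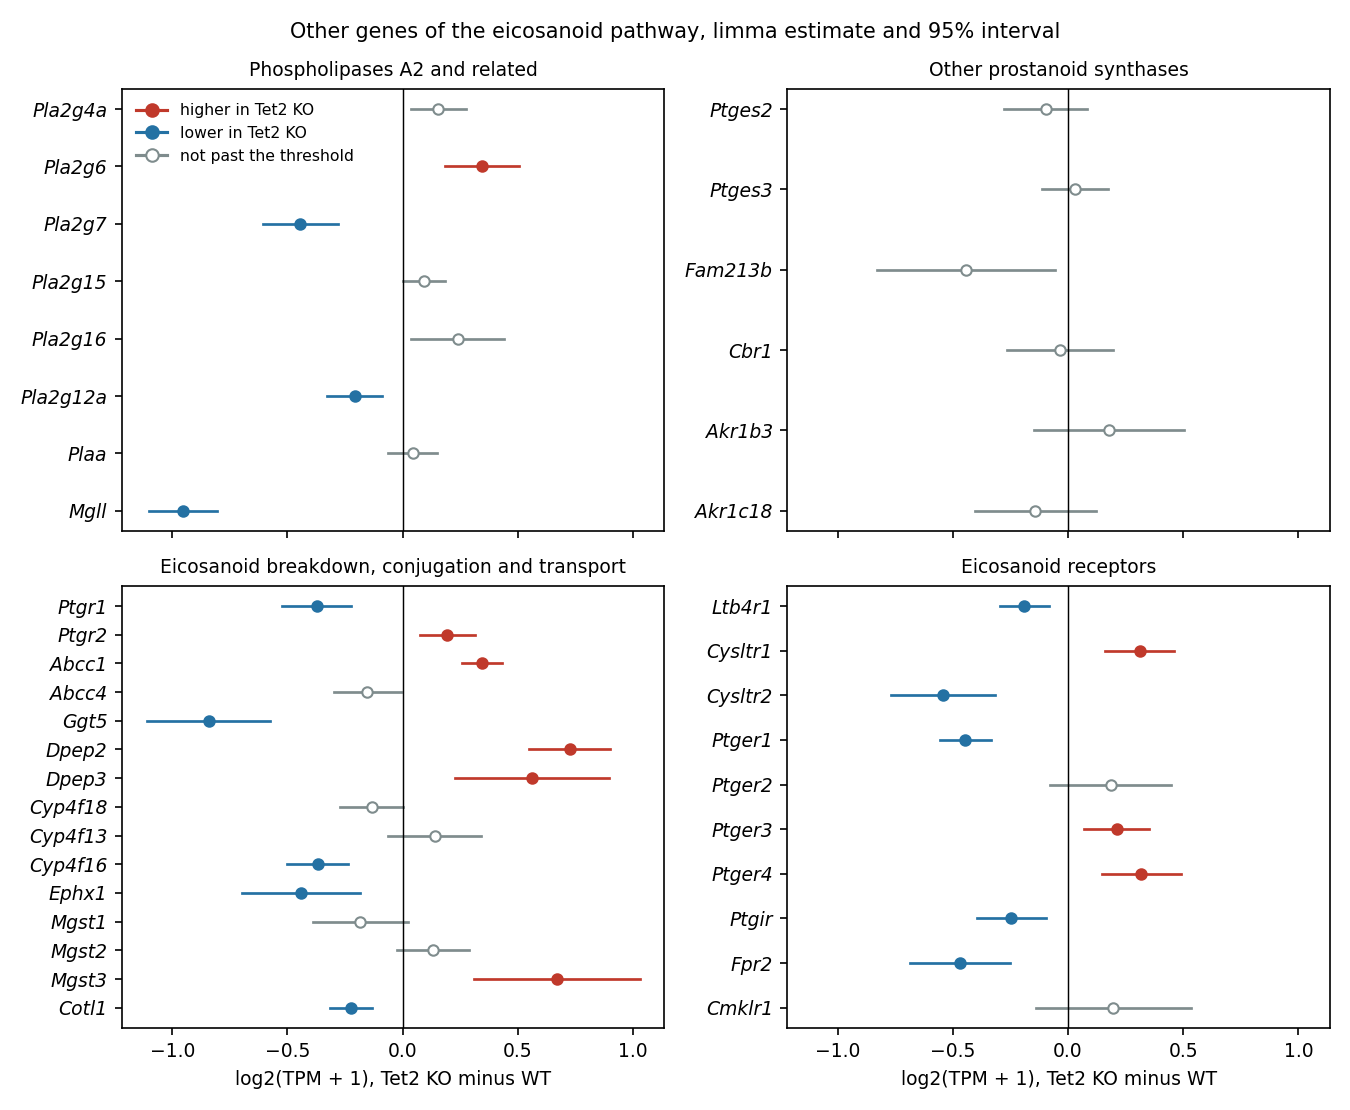
Change of the 39 other tested genes of the eicosanoid pathway on the log2(TPM + 1) scale, Tet2 KO minus WT (x axis), in 4 panels by role, as limma estimates with 95% intervals; red is higher, blue lower and open points did not pass. Mgll at -0.95 and Ggt5 at -0.84 lie furthest to the left, and Dpep2 at 0.73 furthest to the right.

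Among phospholipases A2 and related genes, not all of which release arachidonic acid, 1 of 8 tested was higher and 3 were lower (22 listed, median log2 change 0.07). Mgll, the monoacylglycerol lipase that frees arachidonic acid from an endocannabinoid, had 17.67 and 18.35 TPM in Tet2 KO, against 34.28 and 37.43 TPM in WT. The Tet2 KO mean was 0.502 of the WT mean, and the log2 change was -0.95 (SE 0.059, limma adjusted p = 4.8e-04). Pla2g4a, the cytosolic phospholipase that feeds both branches, had 61.74 and 59.40 TPM in Tet2 KO, against 52.61 and 56.06 TPM in WT, and did not pass (log2 change 0.15, adjusted p = 0.060). Pla2g6, a calcium-independent phospholipase, was higher by 0.35. Pla2g7, which inactivates platelet-activating factor, changed by -0.44 and the secreted Pla2g12a by -0.21. The call of Pla2g7 was lost without Tet2 KO replicate 2 (adjusted p = 0.065), that of Pla2g6 with spike-in scaling (0.24, adjusted p = 0.086) and without any library other than WT replicate 2 (0.064 to 0.10), and that of Pla2g12a without any library (0.056 to 0.16).

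Of 6 tested prostanoid synthases other than the 10 enzymes, 0 passed the limma test (10 listed, median -0.07), and 1, Fam213b, had an unadjusted p under 0.05. Ptges3, a co-chaperone also described as a cytosolic prostaglandin E synthase, was the most abundant, with 239.69 and 241.27 TPM in Tet2 KO, against 222.26 and 249.32 TPM in WT, and its groups overlapped. The 5 other lipoxygenases were all under 1 TPM in every library, and 3 of them were listed at 0 throughout.

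The list of eicosanoid breakdown, conjugation and transport went both ways, with 5 of 15 tested higher and 5 lower as deposited (20 listed, median -0.13). Among the 5 lower it counts Cotl1, which encodes a protein that binds 5-lipoxygenase and not an enzyme or transporter of these steps. With spike-in scaling 2 were higher and 6 lower, and with trimmed-mean scaling 4 and 7. The successive steps of cysteinyl leukotriene handling differed in opposite directions. Abcc1, the transporter that exports leukotriene C, had 76.16 and 76.53 TPM in Tet2 KO, against 60.18 and 59.49 TPM in WT, a log2 change of 0.35 (SE 0.035, limma adjusted p = 0.0022), or 0.23 with spike-in scaling (adjusted p = 0.076). Ggt5, the gamma-glutamyl transferase that converts it to leukotriene D, had 1.51 and 1.76 TPM in Tet2 KO, against 3.64 and 3.80 TPM in WT, a log2 change of -0.84 (SE 0.11, adjusted p = 0.0045). Dpep2, a dipeptidase that converts leukotriene D to leukotriene E, had 75.84 and 74.25 TPM in Tet2 KO, against 41.91 and 48.32 TPM in WT, a log2 change of 0.73 (SE 0.071, adjusted p = 0.0020). In each of the 3 the groups were separated by more than the replicates of either.

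Dpep3, a related dipeptidase, was higher by 0.56, and Mgst3, a microsomal glutathione transferase able to make leukotriene C, by 0.67. Ptgr2, a prostaglandin reductase, was higher by 0.19, while Ptgr1, which inactivates leukotriene B and prostaglandins, changed by -0.37. Cyp4f16, of a cytochrome family that hydroxylates leukotrienes, changed by -0.37, Ephx1, the microsomal epoxide hydrolase, by -0.44, and Cotl1, a coactosin-like protein that binds 5-lipoxygenase, by -0.22. Each of these 7 calls was lost without Tet2 KO replicate 1 (adjusted p from 0.065 to 0.18) and without Tet2 KO replicate 2 (0.057 to 0.14). Those of Ptgr2 and Dpep3 were also lost without either WT replicate (0.066 to 0.10), and that of Ephx1 without WT replicate 2 (0.098). With spike-in scaling Ptgr2 stood at 0.08 (adjusted p = 0.55) and Dpep3 at 0.47 (0.061). Ptgr2 also did not pass with trimmed-mean scaling (0.079), quantile scaling (0.051), no filter (0.056) or no variance trend (0.057). With no filter, Dpep3 (0.071), Mgst3 (0.072) and Ephx1 (0.077) did not pass either, nor did Mgst3 with no variance trend (0.052).

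Of 10 tested eicosanoid receptors, 3 were higher and 5 lower in Tet2 KO (17 listed, median log2 change -0.0022). The most abundant, Ltb4r1, the high-affinity receptor for leukotriene B, had 109.22 and 113.47 TPM in Tet2 KO, against 123.84 and 130.36 TPM in WT, a log2 change of -0.19 (limma adjusted p = 0.024). The receptors for cysteinyl leukotrienes differed in direction. Cysltr1 had 13.29 and 13.48 TPM in Tet2 KO, against 10.27 and 10.93 TPM in WT (log2 change 0.31, adjusted p = 0.016), and Cysltr2 had 2.55 and 2.66 TPM against 4.36 and 4.15 TPM (-0.54, adjusted p = 0.010). Neither of the 2 overlapped between groups.

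Receptors for prostaglandin E were also divided. Ptger1, coupled to calcium, had 37.27 and 36.94 TPM in Tet2 KO, against 49.55 and 52.28 TPM in WT, a log2 change of -0.45 (SE 0.044, limma adjusted p = 0.0021). Ptger4, coupled to cyclic AMP, had 10.93 and 11.65 TPM in Tet2 KO, against 8.56 and 9.16 TPM in WT (0.32, adjusted p = 0.022), and Ptger3 was higher by 0.21 (adjusted p = 0.040). Ptgir, the prostacyclin receptor, changed by -0.25 and Fpr2, a receptor for lipoxin and formyl peptides, by -0.47. Of the 8 receptor calls, each other than that of Ptger1 was lost without Tet2 KO replicate 1 (adjusted p from 0.068 to 0.18), and each of these except that of Fpr2 was lost without Tet2 KO replicate 2 (0.061 to 0.16). Those of Cysltr1, Cysltr2, Ptger3, Ptger4, Ptgir and Fpr2 were lost without WT replicate 1 (0.052 to 0.089), and those of Ltb4r1, Ptger3, Ptgir and Fpr2 without WT replicate 2 (0.064 to 0.12). With spike-in scaling, 5 receptors were called, all lower, and Cysltr1 (0.20, adjusted p = 0.12), Ptger4 (0.21, 0.13) and Ptger3 (0.10, 0.48) did not pass. Ptger3 also did not pass with quantile (0.077) or trimmed-mean scaling (0.085). Neither did Ltb4r1 (0.067) and Ptgir (0.069) with no variance trend, nor Ptger3 (0.079), Ptger4 (0.060) and Ptgir (0.074) with no filter. The thromboxane receptor Tbxa2r and the prostaglandin D receptors Ptgdr and Ptgdr2 were under 1 TPM in all 4 libraries.

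**Figure D4:**
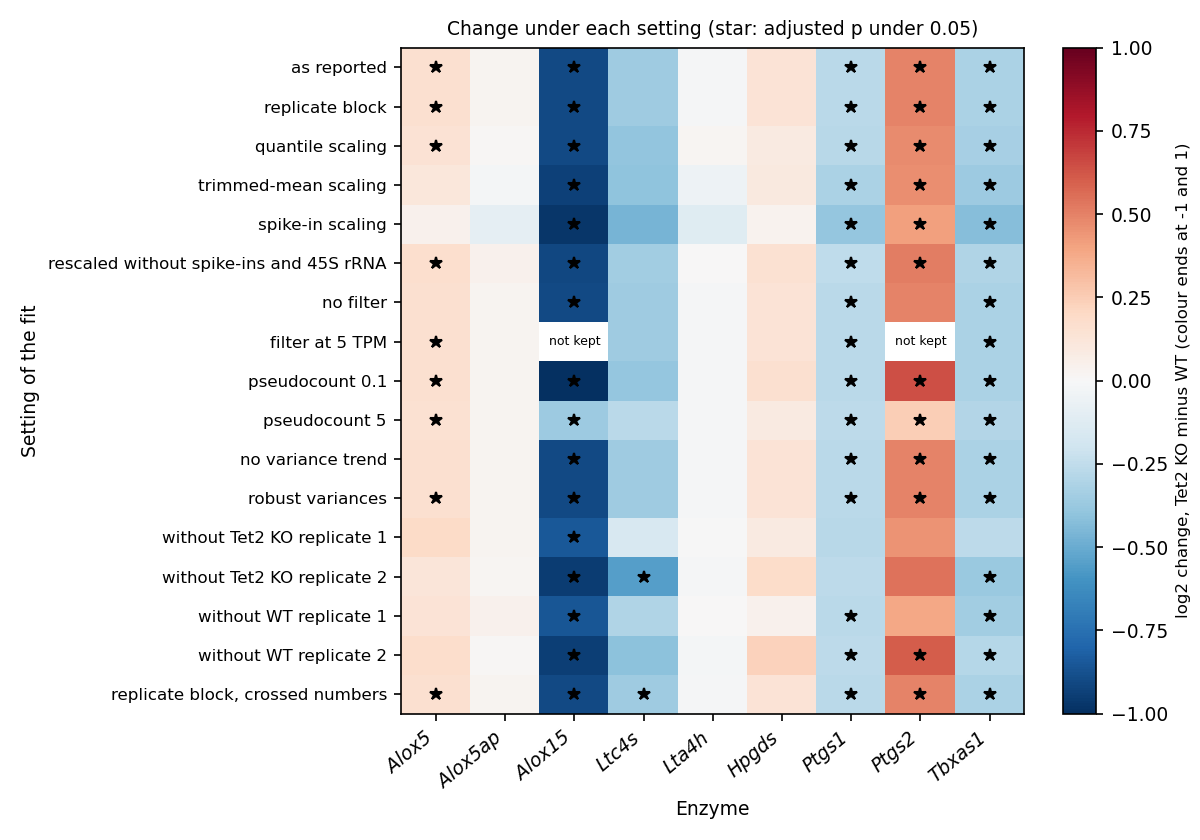
Log2 change of the 9 tested enzymes, Tet2 KO minus WT, under the reported fit and 16 other settings (rows). Colour runs from blue (lower) to red (higher), with the scale ending at -1 and 1. A star marks an adjusted p under 0.05, and the words 'not kept' mark a gene left out by the filter of that row. Alox15 carries a star in every row where it was kept, while Alox5 carries one in 8 of the 16 other rows.

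Genes with a like profile were sought for each called enzyme, by the Euclidean distance between centred log2(TPM + 1) values over the 4 libraries among genes averaging at least 5 TPM. Closest to Alox15 were Aldh3b1 (distance 0.025), Slc31a2 (0.049) and Stfa1 (0.049). Closest to Ptgs1 were Klc4, Tuba4a and Sh3d19 (each 0.012 to 0.013), and closest to Tbxas1 were Dusp3 (0.0074), Rbsn (0.013) and G6pdx (0.015). Closest to Ptgs2 were Zfp97 (0.022), Nme4 (0.053) and Siglecf (0.059), and E4f1 (0.0048) and Rxrb (0.0079) were among those closest to Alox5. Over 4 libraries many genes share such a profile, and small changes lie close to each other by construction. The log2(TPM + 1) scale also understates the changes of low genes, here Alox15 and Ptgs2, so their neighbours changed less in TPM. Alox15, with means 2.76-fold apart, lay beside Aldh3b1, which had 31.61 and 33.40 TPM in Tet2 KO, against 62.55 and 59.57 TPM in WT.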

How the data were processed

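The 10 enzymes and the gene lists were chosen with earlier results of these data known. Per the labels, QIAzol-lysed RNA was made into libraries with a KAPA stranded mRNA kit. The submitters' processing notes name STAR, RSEM and mm10. Versions, annotation and strand use in counting are not given in the sources used here. In all, the authors deposited 1 table of 24589 entries, including 92 ERCC spike-ins and 27 gene names turned into dates. Its values were taken as TPM, since each deposited column sums to 1000000. TPM keep no depth.

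Tests covered the 11837 mouse genes that reached 1 TPM in 2 or more libraries. Their log2(TPM + 1) values were fitted over both groups in limma 3.58.1 (R 4.3.3) with trended variances and without a block. Fold changes on this scale understate those of low genes. P-values are two-sided, and each adjusted p comes from limma with Benjamini-Hochberg adjustment over all tested genes. With 2 libraries a group, the smallest exact permutation p is 0.333, so the calls of single genes rest on the model of limma, which shares variance across genes. When a library was left out, its partner was assumed to vary like the other group. Spike-in, quantile, trimmed-mean and rescaled values, other filters, pseudocounts, variance models and thresholds, and a replicate block, were alternatives. The limma step was tested on simulated data with independent normal noise at its own fitted variances. Such data cannot show how it does with library effects shared by genes or with technical replicates. All 10 enzymes and each called gene of the pathway lists are named.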

Additional observations from a re-analysis of the deposited data

How the results depend on the processing

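The lower calls of Alox15, Ptgs1 and Tbxas1 held under every scaling, filter, pseudocount, variance model and replicate block in which each gene was tested, and Alox15 also without each library. Leaving out 1 library gave 0 to 1 higher enzymes, 1 to 3 lower enzymes, 1015 to 2905 changed genes in all, 1 to 4 called phospholipases, 3 to 10 called breakdown genes, 1 to 4 called receptors and 0 to 1 called other synthases. The count of higher enzymes, 2 as reported, was 1 with trimmed-mean scaling, spike-in scaling, a filter at 5 TPM or no variance trend. It was 0 with no filter or at an adjusted p under 0.01. At a minimum log2 change of 1, higher and lower enzymes both numbered 0. Over all genes, 2108 changed with spike-in scaling, 1505 at an adjusted p under 0.01 and 231 at a log2 change of at least 1. Called receptors numbered 5 with spike-in scaling and 5 with no filter, where called breakdown genes numbered 6 and other lipoxygenases 1. Genes that did not pass turned in sign: Alox5ap to -0.020 and Ptges3 to -0.015 with trimmed-mean scaling; Alox5ap to -0.091, Ptges3 to -0.085, Pla2g15 to -0.022 and Plaa to -0.068 with spike-in scaling; Lta4h to 0.019 with quantile scaling and 0.0056 without the spike-ins and 45S rRNA. Leaving out a library moved Lta4h between -0.017 and 0.00055, Ptges3 between -0.052 and 0.11, and Cbr1 between -0.14 and 0.063. The cause of these changes was not tested. The labels do not tie equal replicate numbers together. With the replicate block 3071 genes changed, with 2 higher and 3 lower enzymes, and called genes numbered 4 among phospholipases, 0 among other lipoxygenases, 0 among other synthases, 9 among breakdown genes and 6 among receptors. That block ended the calls of Dpep3 (adjusted p = 0.0502), Ptger3 (0.059) and Ptgir (0.052). Deviations of same-numbered libraries correlated at -0.11 over 11837 genes, so crossed numbers were added after seeing the data: 3463 genes changed, with 2 higher and 4 lower enzymes and 1 other synthase. Unknown depth limits most the genes near 1 TPM, Alox15, Ptges and Ptgs2.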

Other observations

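Below the filter on low values, 2 pathway genes chosen after their values were seen were lower in both Tet2 KO libraries than in both WT libraries. Pla2g5, a secreted phospholipase of macrophages and mast cells, had 0.04 and 0.00 TPM in Tet2 KO, against 0.64 and 0.86 TPM in WT. Alox8, the mouse 8-lipoxygenase, had 0.14 and 0.15 TPM in Tet2 KO, against 0.54 and 0.91 TPM in WT. At such levels, with the depth unknown, these values are given without a fold change. Other genes below the filter lay the same way, such as Pla2g4b (0.00 and 0.00 TPM in Tet2 KO, against 0.25 and 0.20 TPM in WT) and Pla2g2e (0.11 and 0.20 TPM against 0.39 and 0.64 TPM). Hpgd and Tbxa2r lay the other way. Hpgd, the dehydrogenase that starts prostaglandin breakdown, had 0.66 and 0.34 TPM in Tet2 KO, against 0.14 and 0.31 TPM in WT. Tbxa2r had 0.15 and 0.13 TPM against 0.00 and 0.10 TPM.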
